A study of Mus musculus with 47 samples.

Results

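Costimulatory and checkpoint ligands of antigen-presenting cells were followed across 12 RNA-seq libraries of mouse macrophages. The 7 genes were Cd40, Cd80, Cd83, Cd86, Cd274, Icosl and Icam1, and they were picked by gene symbol from 51912 genes in the tables of bone-marrow-derived macrophages (BMDMs) and from up to 23772 genes in those of Raw264.7 cells, a mouse macrophage line. Each gene was found in every table and passed the filter on low values in all 11 comparisons. The 12 libraries belong to a series of 47 samples, of which the other 35 were not analysed here.

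A T cell that recognizes antigen on a macrophage also reads the surface proteins displayed beside it. CD80 and CD86 give the second signal through CD28 or a brake through CTLA-4, ICOSL engages ICOS, and CD274 (PD-L1) restrains T cells through PD-1. CD40 is the receptor through which T cells bearing CD40 ligand license the antigen-presenting cell, CD83 is an immunoglobulin-family protein of mature antigen-presenting cells, and ICAM-1 holds the contact together by binding the integrin LFA-1. Toll-like receptor signalling is known to raise several of these molecules in macrophages.

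BMDMs came from C57BL/6 mice whose bone marrow cells were differentiated for 5 days with M-CSF at 20 ng/ml. WT donors were Zmynd8 fl/fl littermates, and Zmynd8 cKO donors carried the same floxed alleles, with loxP sites around exons 6 and 7, plus a heterozygous Lyz2-Cre allele, which acts in myeloid cells including neutrophils. Cells of each genotype were left untreated (NT) or received LPS at 100 ng/ml or IL-4 at 20 ng/ml for 6 h. The age of the donors was not given in the sources used here. Each condition was 1 library made from a mix of 3 biological replicates, so no spread between replicates can be computed, no p-value is given, and all limits below are 95% Clopper-Pearson limits on the reads that cover counting error only.

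The Raw264.7 libraries were also 1 per condition. In 3 of them the cells were deficient for Zmynd8 and carried wild-type Zmynd8 (WT Zmynd8), the D/E-A mutant in which the acidic residues of the disordered region are alanines (D/E-A), or no rescue protein named in the label (Zmynd8 KO). In the other 3 they were deficient for p65, the NF-κB subunit encoded by Rela, and carried wild-type p65 (WT p65), the K122R mutant that lacks an acetylated lysine (K122R), or no rescue protein named in the label (p65 KO). For other assays the study describes such deficient cells as carrying the vector. The labels name LPS for the p65 lines and the study's Results name it for WT Zmynd8 and D/E-A, while no treatment was given for Zmynd8 KO. The LPS dose and time of these lines, and whether a line was 1 clone, were not given in the sources used here. The column used for WT p65 was headed WT with LPS and did not name the p65 deletion.

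Depth ranged from 22597408 to 28386612 counts per BMDM library and from 15127110 to 21042628 reads per Raw264.7 library. Macrophage markers were high in BMDMs, with summed levels of 8836 to 17840 CPM (counts per 1000000 of the library total) over the 7 of 8 markers with a level. Raw264.7 is a male line, yet the 3 Zmynd8-line libraries held 7109 to 8467 reads of Xist, against 0 to 3 in the p65 lines. In BMDMs, Xist was at 740 CPM in WT NT and 323.5 in cKO NT, 246 and 429 with LPS, and 1108 and 1057 with IL-4, and its part in the ligand differences was not tested. The 8 neutrophil markers summed to 10350 CPM in WT Zmynd8, 4423 in D/E-A and 6966 in Zmynd8 KO, all 8 at 1 CPM or more. In the p65 lines 3 of the 8 had a row, and these summed to at most 0.319 CPM. The IL-4 BMDM libraries held neutrophil markers at 382 CPM in WT and 514 CPM in cKO, against 2.33 to 4.22 CPM in NT and LPS. The Zmynd8 lines thus went against their label, and because all 3 did, no comparison of them could be made without the doubted libraries. In bulk RNA, fewer cells of a type and less RNA per cell cannot be told apart.

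The targeted genes were read first as a check of the labels. Zmynd8 was at 87.1 CPM in WT NT and 81.5 in cKO NT, 79.0 and 86.8 with LPS, and 128 and 151 with IL-4. The cKO level was thus lower in NT and higher with LPS and with IL-4, in each case by less than the 1.2-fold used below. A count over the whole gene includes the exons outside the floxed pair and therefore does not check the deletion. In the Raw264.7 table, the deposited Zmynd8 value was 116 in Zmynd8 KO and 506 in WT Zmynd8. The Zmynd8 KO value was the only value of its column that did not come out as a whole number of reads, and why was not given in the sources used here. D/E-A held 497 reads of Zmynd8 and WT Zmynd8 held 485. Rela held 1601 reads in WT p65, 5850 in K122R and 765 in p65 KO.

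LPS raised most of the 7 ligands by a large factor in both genotypes. Relative to NT, a gene was called when its CPM plus 1 differed by a fold of at least 1.2. The study's own rule paired this fold with a p-value and a false discovery rate, which were not applied here. In WT BMDMs all 7 genes were called higher, where 84.8% of all genes tested were called in either direction and 21.7% were called higher. In cKO BMDMs 6 of 7 were called higher, against 85.5% of all genes in either direction and 25.0% higher. At a fold of at least 2, 5 of the 7 were higher in each genotype, against 10.5% of all genes in WT and 13.2% in cKO.

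**Figure D1:**
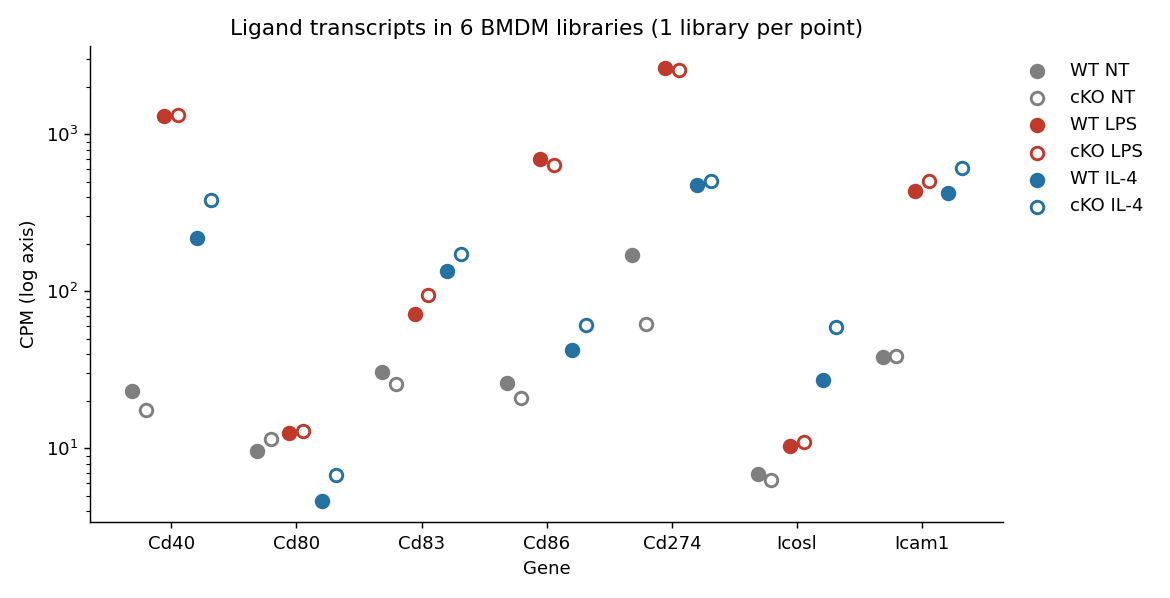
CPM on a log axis for the 7 genes in 6 BMDM libraries, with filled points for WT, open points for cKO, gray for NT, red for LPS and blue for IL-4; each point is 1 library and there are no error bars. Cd40, Cd86 and Cd274 are highest with LPS, Cd83 and Icosl are highest with IL-4, and Cd80 stays between 4.65 and 12.9 CPM.

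Cd40 was at 23.3 CPM in WT NT and 17.7 in cKO NT, 1302 and 1328 with LPS, and 218 and 381 with IL-4. It was lowest in NT and highest with LPS, and the pairs of libraries of each treatment did not overlap. The LPS increase of Cd40 was 53.6-fold in WT (log2 fold change 5.74, limits 5.69 to 5.92) and 71.3-fold in cKO (6.15, limits 6.09 to 6.38). Cd40 lies on mouse chromosome 2 at 165055608 to 165071654 (mm10, plus strand).

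Cd86, which shares its receptors with Cd80, was at 26.1 and 20.8 CPM in WT and cKO NT, 700 and 635 with LPS, and 42.6 and 60.8 with IL-4. It rose 25.8-fold with LPS in WT and 29.1-fold in cKO. Cd80, by contrast, was low throughout, at 9.62 and 11.5 CPM in NT, 12.5 and 12.9 with LPS, and 4.65 and 6.81 with IL-4. Its LPS difference was called in WT at 1.27-fold (log2 0.35, limits 0.13 to 0.62) and was not called in cKO at 1.12-fold (log2 0.16, limits -0.07 to 0.42). The 2 genes lie on chromosome 16 (mm10), Cd80 at 38457431 to 38495958 on the plus strand and Cd86 at 36568956 to 36666077 on the minus strand. Between 132 and 311 counts stood behind each Cd80 level, so its limits were the widest with those of Icosl.

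Cd274 was at 172 CPM in WT NT and 62.2 in cKO NT, 2662 and 2565 with LPS, and 474 and 502 with IL-4. LPS raised it 15.4-fold in WT and 40.6-fold in cKO. The LPS levels of the 2 genotypes were close, so the larger fold of cKO went with its lower NT level. Icam1 was at 38.1 and 38.9 CPM in NT, 436 and 501 with LPS, and 423 and 610 with IL-4. Its LPS increase was 11.2-fold in WT and 12.6-fold in cKO, and its levels with LPS and with IL-4 overlapped. Cd274 lies on chromosome 19 at 29367438 to 29388095 and Icam1 on chromosome 9 at 21015960 to 21028797 (mm10, plus strand).

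Cd83 and Icosl behaved differently from the other ligands. Cd83 was at 30.9 and 25.6 CPM in NT, 71.3 and 95 with LPS, and 135 and 173 with IL-4, so both IL-4 libraries were above both LPS libraries. Icosl was at 6.87 and 6.28 CPM in NT, 10.4 and 11.01 with LPS, and 27.1 and 59.7 with IL-4, in the same order. The LPS fold of Cd83 was 2.27 in WT and 3.61 in cKO, and that of Icosl was 1.44 and 1.65. Cd83 lies on chromosome 13 at 43785112 to 43803133 and Icosl on chromosome 10 at 78069368 to 78079525 (mm10, plus strand).

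The choice of scale changed some of these values. On CPM plus 1, the median log2 fold change of LPS over NT for all genes tested was -0.58 in WT and -0.55 in cKO, against 3.48 and 3.66 for the 7 ligands. Scaling by the median ratio of all genes added 0.57 in WT and 0.54 in cKO to that median. Under that scaling the Cd80 change in cKO was 0.69 and was called. The same scaling moved the share of called genes that were higher from 25.6% to 46.2% in WT and from 29.3% to 47.4% in cKO, and TMM scaling gave 45.0% and 46.7%.

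Markers of cell types also moved with LPS. Of the dendritic cell markers past the filter, 4 of 5 were called higher and 1 lower in WT, and 3 of 5 higher and 1 lower in cKO. Xcr1 went from 27 to 180 counts in WT and from 12 to 201 in cKO, and Ccr7 from 3 to 165 in cKO, while Itgax was called lower in both. Of 7 macrophage markers, 3 were called lower and 2 higher in WT, and 4 lower and 3 higher in cKO. Csf1r went from 45362 to 14654 counts in WT, while Lyz2 in WT, at -0.67, lay near the median of all genes. The part of these markers in the ligand changes was not tested.

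Within a library, the ligands can be ordered by TPM, a share of transcripts that is corrected for gene length. In WT NT Cd274 led with 70.8 TPM, followed by Cd86 at 28.5, Cd40 at 27.9, Icam1 at 23.3, Cd83 at 22.5, Cd80 at 6.08 and Icosl at 3.83. In cKO NT the same 5 genes led, between 15.7 and 21.5 TPM, and Cd274 was nearly level with Icam1 at 19.9. With LPS the order was Cd40, Cd274, Cd86 and Icam1 in both genotypes, at 1823, 1045, 716 and 253 TPM in WT and 1993, 1068, 642 and 309 TPM in cKO. With IL-4 the 3 most abundant were Cd40, Icam1 and Cd274, at 371, 263 and 199 TPM in WT and 641, 372 and 207 TPM in cKO. With 1 library per condition, no spread between replicates was available to separate neighbours in these orders.

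Promoter sequences were looked up for the 7 genes, and 4 had an entry. They are the 250 bases before the start in RefSeq (GRCm38.p6, the same assembly as mm10). Of the 4, those of Cd274, Icosl and Icam1 are shown, since these genes changed more with treatment than Cd80. Cd40, Cd83 and Cd86 had no entry. Capitals mark matches, on either strand, to a kappaB consensus (GGGRNNYYCC) or to GAS (TTCNNNGAA), the letters bound by STAT dimers. R stands for A or G, Y for C or T and N for any base.
Cd274, chr19:29367188-29367437, plus strand: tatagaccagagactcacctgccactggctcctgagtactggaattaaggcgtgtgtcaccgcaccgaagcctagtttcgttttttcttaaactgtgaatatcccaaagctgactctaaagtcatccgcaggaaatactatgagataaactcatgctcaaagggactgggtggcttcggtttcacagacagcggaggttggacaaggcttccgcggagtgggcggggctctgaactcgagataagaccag
Icosl, chr10:78069118-78069367, plus strand: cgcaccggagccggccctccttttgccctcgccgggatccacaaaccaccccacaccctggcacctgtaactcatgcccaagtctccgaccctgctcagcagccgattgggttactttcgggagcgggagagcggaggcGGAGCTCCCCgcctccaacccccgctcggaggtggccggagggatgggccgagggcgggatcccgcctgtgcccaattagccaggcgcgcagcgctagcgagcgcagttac
Icam1, chr9:21015690-21015939, plus strand: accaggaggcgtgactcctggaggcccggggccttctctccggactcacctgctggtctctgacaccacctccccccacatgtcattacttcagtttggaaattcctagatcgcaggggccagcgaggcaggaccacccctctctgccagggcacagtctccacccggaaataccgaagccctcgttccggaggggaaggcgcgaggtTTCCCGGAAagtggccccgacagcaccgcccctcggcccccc

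The Icosl window held 1 kappaB match on the minus strand at -111 to -102, counted back from the start. The Icam1 window held 1 GAS match at -42 to -34. No match to these was in the Cd274 or Cd80 window, and no TATA box (TATAAA, either strand) was in any of the 4. Of 32841 windows of the same length, 7.25% held a kappaB match, 7.02% GAS and 12.4% TATAAA. A match here is a description of letters and not a binding site, and sites with other letters were not searched for.

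IL-4 also raised 6 of the 7 ligands in each genotype and lowered Cd80. The share of all genes called was 64.4% in WT, with 41.3% higher and 23.1% lower, and 70.9% in cKO, with 44.7% higher and 26.2% lower. The largest increases in WT were those of Icam1 at 10.8-fold and Cd40 at 8.997-fold, and in cKO those of Cd40 at 20.5-fold and Icam1 at 15.3-fold. Icosl rose 3.57-fold in WT and 8.33-fold in cKO, Cd83 4.26-fold and 6.53-fold, Cd274 2.75-fold and 7.96-fold, and Cd86 1.61-fold and 2.83-fold. Cd80 fell by 0.91 on the log2 scale in WT (limits -1.36 to -0.74) and by 0.67 in cKO (limits -1.03 to -0.47). The Cd86 change in WT was not called on deposited TPM, where it was 0.19. Median ratio scaling moved the share of called genes that were higher from 64.1% to 50.4% in WT and from 63.1% to 50.8% in cKO, TMM scaling gave 49.4% and 48.8%, and deposited TPM gave 76.6% in cKO. The LPS and IL-4 comparisons of a genotype share its NT library.

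**Figure D2:**
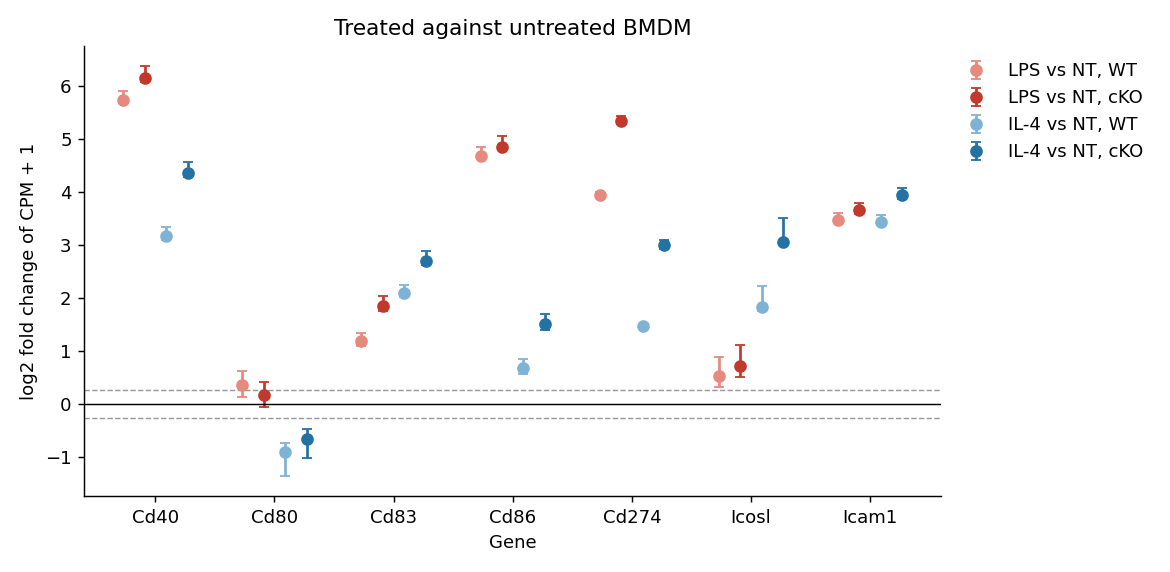
Log2 fold change of CPM plus 1 for LPS (red) and IL-4 (blue) over NT in WT (light) and cKO (dark) BMDMs; bars are 95% limits on the reads and dashed lines mark a fold of 1.2. The LPS changes of Cd40, Cd86 and Cd274 lie between 3.95 and 6.15, and Cd80 is below 0 with IL-4 in both genotypes.

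The IL-4 libraries differed from the NT libraries in more than the ligands. Their titles carry sample indices that do not run on from those of the NT and LPS libraries, and their table held 2 entries that were not genes against 431 in the others, so treatment and processing run cannot be told apart. Neutrophil markers, at 382 and 514 CPM, had 7 of 8 genes called higher in each genotype. S100a9 rose from 13 to 3451 counts in WT and from 12 to 4830 in cKO. Dendritic cell markers were also called higher, in 5 of the 6 past the filter in WT and in 7 of 7 in cKO. The other in WT, Xcr1, was called lower, at 15 counts against 27. In WT, Batf3 rose from 43 to 1124 counts and Itgax from 1313 to 6882, while Cd209a was at 0 in both IL-4 libraries. The 8 dendritic cell markers summed to 288 CPM in WT IL-4 and 237 in cKO IL-4, against 45.1 to 72.0 in NT and LPS. Itgax alone held 242 CPM of this sum in WT IL-4 and 209.5 in cKO IL-4. The part of these neutrophil and dendritic cell markers in the ligand changes was not tested. Of the IL-4 response genes, 5 of 6 were called higher in WT and 3 of the 5 past the filter in cKO, with Arg1 at 42592 and 40252 counts against 20 and 14.

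With IL-4, 6 of the 7 ligands were higher in cKO than in WT BMDMs. The 6 called genes compare with 30.7% of all genes called, 17.3% higher and 13.4% lower. At a fold of at least 2 Icosl alone was called, against 1.97% of all genes. Icosl, at 27.1 CPM in WT and 59.7 in cKO, was 2.16-fold higher (log2 1.11, limits 1.01 to 1.27). Cd40 was 1.75-fold higher (log2 0.80, limits 0.76 to 0.85), Icam1 1.44-fold, Cd86 1.42-fold, Cd80 1.38-fold and Cd83 1.28-fold. Cd274, at 474 and 502 CPM, was not called (log2 0.08, limits 0.05 to 0.12). The median over the 7 genes was 0.50, against 0.01 over all genes.

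LPS response genes moved with these differences. Of 8 such genes, all 8 were called higher in cKO IL-4, with a summed level of 1583 CPM against 377 in WT IL-4, and Acod1 rose from 7385 to 30470 counts and Cxcl10 from 630 to 2556. Neutrophil markers were also higher in cKO IL-4, with 5 of 7 called. Of 7 macrophage markers, 2 were called higher and 3 lower, with Cd14 higher by 1.01 and Lyz2, the locus that carries the Cre, lower by 0.77 on the log2 scale. Of 7 dendritic cell markers past the filter, 2 were called higher and 2 lower, with Batf3 at 565 counts against 1124 and Xcr1 at 32 against 15. The part of any of these in the ligand differences was not tested.

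Without treatment, 3 of the 7 ligands were lower in cKO and none was called higher. The background in NT was wide, with 54.0% of all genes tested called, 29.0% lower and 25.0% higher. At a fold of at least 2 Cd274 alone was called, against 3.83% of all genes. The median over the 7 genes was -0.26, against -0.01 over all genes. Cd274 showed the largest difference, from 172 CPM in WT to 62.2 in cKO, a 2.73-fold lower level (log2 -1.45, limits -1.55 to -1.38), at the 0.9 percentile of all genes tested. Cd40 was lower by 1.30-fold (log2 -0.38, limits -0.59 to -0.22) and Cd86 by 1.24-fold (log2 -0.31, limits -0.50 to -0.16). Cd83 was at a log2 value of -0.26 with limits of -0.43 to -0.12, just under the cut-off. Icosl at -0.11, Icam1 at 0.03 and Cd80 at 0.23 were not called. On deposited TPM, 5 genes were lower, Cd83 at -0.49 and Icosl at -0.29 included, while the median of all genes moved by -0.22 and the share of called genes that were higher went from 46.3% to 22.0%. In NT, 4 of 6 LPS response genes past the filter were also called lower in cKO and 1, Tnf, was called higher, at 1023 counts against 868. Among those lower were Cxcl10 at 196 against 667 counts and Ccl5 at 507 against 1414. The part of the LPS response genes in the Cd274 difference was not tested. Of the 7 macrophage markers past the filter, 4 were called lower and 2 higher in cKO NT. Mertk was at 913 counts against 2590 and Fcgr1 at 10129 against 20642, while Cd14 was at 10205 against 5848. The summed macrophage marker level was 14150 CPM in cKO NT and 17420 in WT NT. Of this sum Lyz2, the locus that carries the Cre, held 7202 CPM in cKO NT and 10950 in WT NT. Of 3 dendritic cell markers past the filter, 2 were called higher and 1 lower, with Batf3 at 76 counts against 43. The part of both lists in the ligand differences was not tested.

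With LPS, the ligands differed little between genotypes. Only Cd83 was called among the 7, from 71.3 CPM in WT to 95 in cKO, 1.33-fold higher (log2 0.41, limits 0.32 to 0.50), where 35.9% of all genes were called, 22.6% higher and 13.3% lower. At a fold of at least 2 no ligand was called, against 0.904% of all genes. Icam1 was at 0.20 (limits 0.16 to 0.24), Icosl at 0.08, Cd80 at 0.05, Cd40 at 0.03, Cd274 at -0.05 and Cd86 at -0.14 (limits -0.17 to -0.11), none of them called. On deposited TPM Icam1 reached 0.29 and was called. The median over the 7 genes was 0.05 and that over all genes was 0.03. Median ratio scaling moved the share of called genes that were higher from 62.8% to 51.4%, and deposited TPM gave 72.8%. The 5 LPS response genes called higher included Il12b, from 216 to 647 counts, and Il1b, from 1626 to 4137. Dendritic cell markers were called higher in 3 of the 6 past the filter and lower in none, with Itgax at 971 counts against 668 and Clec9a at 116 against 75. Of 7 macrophage markers, 1 was called higher, Adgre1 at 40698 counts against 29417, and 2 lower. Lyz2, the locus that carries the Cre, was at 67763 counts against 171869. The part of these markers in the Cd83 difference was not tested.

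**Figure D3:**
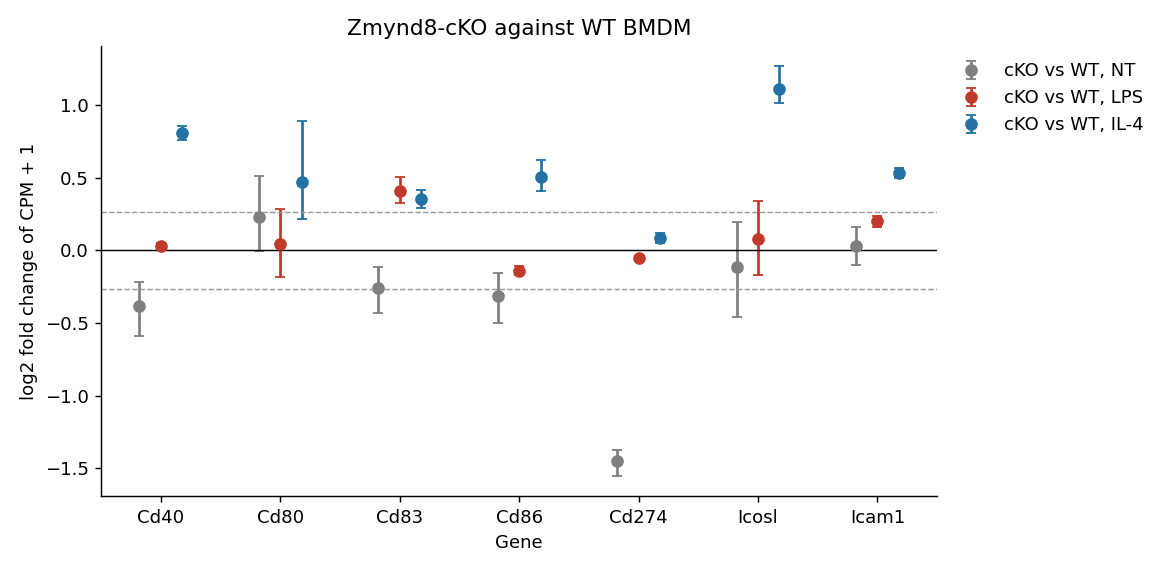
Log2 fold change of CPM plus 1 for cKO over WT BMDMs in NT (gray), LPS (red) and IL-4 (blue); bars are 95% limits on the reads and dashed lines mark a fold of 1.2. Cd274 is at -1.45 in NT, Icosl is at 1.11 with IL-4, and with LPS Cd83, at 0.41, is the point above the upper line.

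Of the 7 ligands, 5 were thus on opposite sides of 0 in NT and IL-4, at -0.38 and 0.80 for Cd40, -0.26 and 0.35 for Cd83, -0.31 and 0.50 for Cd86, -1.45 and 0.08 for Cd274, and -0.11 and 1.11 for Icosl. On CPM plus 1 and a fold of at least 1.2, Cd40 and Cd86 were called in both treatments with opposite signs. On deposited TPM, Cd83 and Icosl were as well, and at a fold of at least 2 no ligand was called in both. With 1 library per condition, the difference between treatments in the effect of genotype was not tested.

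Relatives of the ligands were read from lists of the same families. The shares of all genes called in each comparison are those given above, and no list was tested against them. Of the other B7 family ligands, Pdcd1lg2, which encodes the second PD-1 ligand PD-L2, was at 79.0 CPM in WT IL-4 and 58.2 in cKO IL-4, 7.47 and 3.07 with LPS and at most 0.133 in NT. It was thus lower in cKO with IL-4 (log2 -0.43) and with LPS (log2 -1.06), where Cd274 was not called. Vsir, which encodes the checkpoint ligand VISTA, fell by 1.79 on the log2 scale with LPS in WT (median ratio scaling adds 0.57) and fell by 1.81 in cKO (it adds 0.54). Of 4 such genes, none was called higher and 2 of the 3 past the filter were called lower in cKO both with LPS and with IL-4, and 1 of 2 was called higher in NT.

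Of 10 TNF superfamily ligands, 6 of 7 past the filter rose with LPS in WT, and in cKO 5 of 7 rose and 1 was called lower. Tnfsf10 (TRAIL) led, from 268 to 4939 counts in WT and from 56 to 4355 in cKO. In cKO against WT, 4 of 6 were called higher with IL-4, 1 of 8 higher and 3 lower with LPS, and 2 of 6 higher and 2 lower in NT. Tnfsf9, the ligand of 4-1BB, was higher by 1.07 with IL-4 and by 0.49 in NT on the log2 scale, and was called lower with LPS, at -0.33. Of 10 other checkpoint ligands, 5 of 9 past the filter were called higher and 2 lower in cKO with IL-4, among them Cd200, an inhibitory ligand of myeloid cells, from 17 to 132 counts. In NT 3 were higher and 3 lower, and with LPS 1 was higher and 3 lower. Tnfrsf14, the receptor HVEM that engages BTLA on T cells, was at 42 counts in cKO NT against 209 in WT NT and at 1097 against 754 with LPS.

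The CD40 signalling list holds 11 TRAF, cIAP and noncanonical NF-κB genes. In WT 6 of 11 were called higher and 1 lower with LPS, and 10 of 11 were higher with IL-4. In cKO 9 were higher and 1 lower with LPS, and 11 were higher with IL-4. Traf1 rose from 256 to 4530 counts with LPS in WT, and Birc3 from 621 to 5549 with IL-4 in WT. In cKO against WT, 7 of 11 were called higher with LPS, 3 higher and 1 lower with IL-4, and 1 higher and 4 lower in NT. Traf1 was higher in cKO by 1.27 with IL-4 and by 0.43 with LPS. Of 13 adhesion molecules past the filter, 8 were called higher and 2 lower in cKO with LPS, 4 higher and 1 lower with IL-4, and 2 higher and 4 lower in NT. Itga4, a subunit of the VCAM-1 receptor VLA-4, was higher by 0.91 with LPS and 0.83 with IL-4 and was at -0.77 in NT, where it was called lower. Vcam1 was lower by 1.26 in NT and higher by 0.56 with LPS and 0.83 with IL-4.

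The receptors of these ligands were mostly near 0, and 2 of 6 passed the filter in BMDMs. Itgal, the alpha chain of LFA-1 that binds ICAM-1, was at 80.9 and 49.0 CPM in NT, 296 and 420 with LPS, and 311 and 361 with IL-4. Cd28, the receptor of CD80 and CD86, was at 93.8 and 86.0 CPM in NT, 9.40 and 10.0 with LPS, and 5.18 and 6.01 with IL-4. Among T cell markers in BMDMs, 1 of 6 was at 1 CPM or more in each library.

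In the libraries labelled Raw264.7, the D/E-A mutant was set against WT Zmynd8. Of the 7 ligands, 5 were called higher and none lower, where 72.6% of all genes were called, 36.7% higher and 35.9% lower. At a fold of at least 2 Cd274 alone was called, against 18.4% of all genes. Cd274 stood out, with 463 CPM in WT Zmynd8, 1065 in D/E-A and 687 in Zmynd8 KO. On the deposited values plus 1, it was 2.35-fold higher in D/E-A (log2 1.23, limits 1.19 to 1.27), at the 96.8 percentile of all genes tested. Icam1 was 1.51-fold higher (log2 0.60), Cd80 1.39-fold (0.47), Cd86 1.33-fold (0.41) and Cd40 1.24-fold (0.31). Cd83 at 0.07 and Icosl at -0.24 were not called, and Icosl was called lower at -0.28 when values were scaled by TMM or taken as reads over the library total.

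Zmynd8 KO was compared with the same WT Zmynd8 library, so the 2 comparisons share their control. In it 4 ligands were called higher and none lower, against 70.3% of all genes called, 33.8% higher and 36.5% lower. No ligand reached a fold of 2 in Zmynd8 KO, where 25.6% of all genes did, nor in K122R (20.0%) or p65 KO (15.8%). The filter was a mean value of at least 1, so these shares include genes with few reads, while each ligand held at least 219. Cd274 was 1.56-fold higher (log2 0.64, limits 0.60 to 0.68), Icam1 1.39-fold (0.48), Cd40 1.33-fold (0.41) and Cd86 1.21-fold (0.27). The Cd86 difference dropped below the cut-off with TMM scaling, at 0.25, and with library totals, at 0.20. Cd80 at 0.24, Cd83 at 0.06 and Icosl at -0.09 were not called. The median over the 7 genes was 0.41 in D/E-A and 0.27 in Zmynd8 KO, and that over all genes was 0.01 and -0.03.

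Markers of several cell types moved with both comparisons. All 8 neutrophil markers were called lower in D/E-A and 5 of 8 in Zmynd8 KO, with Camp at 17477 reads in WT Zmynd8 and 5310 in D/E-A. Macrophage markers were higher in 7 of 8 cases in each, with Adgre1 at 6185 reads in WT Zmynd8, 15882 in D/E-A and 13699 in Zmynd8 KO. Summed macrophage marker levels were 4763 CPM in WT Zmynd8, 9001 in D/E-A and 6073 in Zmynd8 KO, an order that Cd80, Cd86, Cd274 and Icam1 followed. Dendritic cell markers gave 3 higher and 4 lower of 7 in D/E-A, and 2 higher and 3 lower of 8 in Zmynd8 KO. Of 6 T cell markers, 2 were called lower in D/E-A, and in Zmynd8 KO 4 were lower and 1 higher, with Cd3e at 38 reads in WT Zmynd8 and 2 in Zmynd8 KO. Of 8 LPS response genes, 3 were called higher and 3 lower in D/E-A, and 3 higher and 1 lower in Zmynd8 KO. Nos2 was at 9199 reads in WT Zmynd8, 49114 in D/E-A and 25371 in Zmynd8 KO, and Il12b was at 2800, 1448 and 2046. Rows for 18S RNA held 17.1% of reads in WT Zmynd8, 8.17% in D/E-A and 13.8% in Zmynd8 KO. Whether these shifts take part in the ligand differences was not tested.

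K122R gave mixed directions against WT p65. Of the 7 ligands 2 were called higher and 4 lower, where 63.3% of all genes were called, 30.8% higher and 32.5% lower. Levels and folds of K122R and p65 KO against WT p65 are given on the deposited values, scaled by the authors, with 1 added for the folds. Cd86 was at 232.5 in WT p65 and 430 in K122R, 1.85-fold higher (log2 0.88, limits 0.65 to 1.12), on 237 and 422 reads. Cd274 was 1.22-fold higher (log2 0.29) and was not called on library totals, where it was 0.15. Cd80 was at 761 in WT p65 and 425 in K122R, 1.79-fold lower (log2 -0.84, limits -1.02 to -0.67). Icosl was lower by 1.46-fold (-0.55), Icam1 by 1.40-fold (-0.48) and Cd40 by 1.33-fold (-0.42), while Cd83 was at 0.20 and was not called. With library totals the median of all genes moved by -0.14 and the share of called genes that were higher fell from 48.6% to 37.0%. Rela was higher in K122R by 1.92 on the log2 scale, and Zmynd8 was at 1070 reads against 1826, so the dose of p65 and the K122R change cannot be told apart. Of 8 LPS response genes, 5 were called higher and 1 lower in K122R, with Acod1 at 108712 reads against 54120 and Nos2 at 9701 against 3414. Of 5 dendritic cell markers past the filter, 1 was higher and 2 lower, with Ccr7 at 59 reads against 298. Of 8 macrophage markers, 3 were higher and 2 lower, with Cd14 at 13890 reads against 7987, while the lower call of Mertk rests on 3 reads against 4. The part of these lists in the ligand differences was not tested.

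p65 KO was set against the same WT p65 library. Of the ligands 1 was called higher and 1 lower, against 51.9% of all genes called, 26.3% higher and 25.7% lower. Cd83 was 1.24-fold higher (log2 0.31, limits 0.26 to 0.36) and Cd40 1.26-fold lower (log2 -0.33, limits -0.37 to -0.29). Icam1, at -0.25 with limits of -0.29 to -0.20, Icosl at -0.17, Cd274 at -0.11, Cd86 at -0.06 and Cd80 at -0.02 were not called. Of the LPS response genes, 1 of 8 was called higher and 4 lower in p65 KO, and the dendritic cell markers gave 2 higher and 1 lower of 5 and the macrophage markers 2 higher and 1 lower of 8. The lower macrophage marker was Mertk, on 2 reads against 4. The 4 ligands lower in K122R had log2 values of -0.33 to -0.02 in p65 KO.

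**Figure D4:**
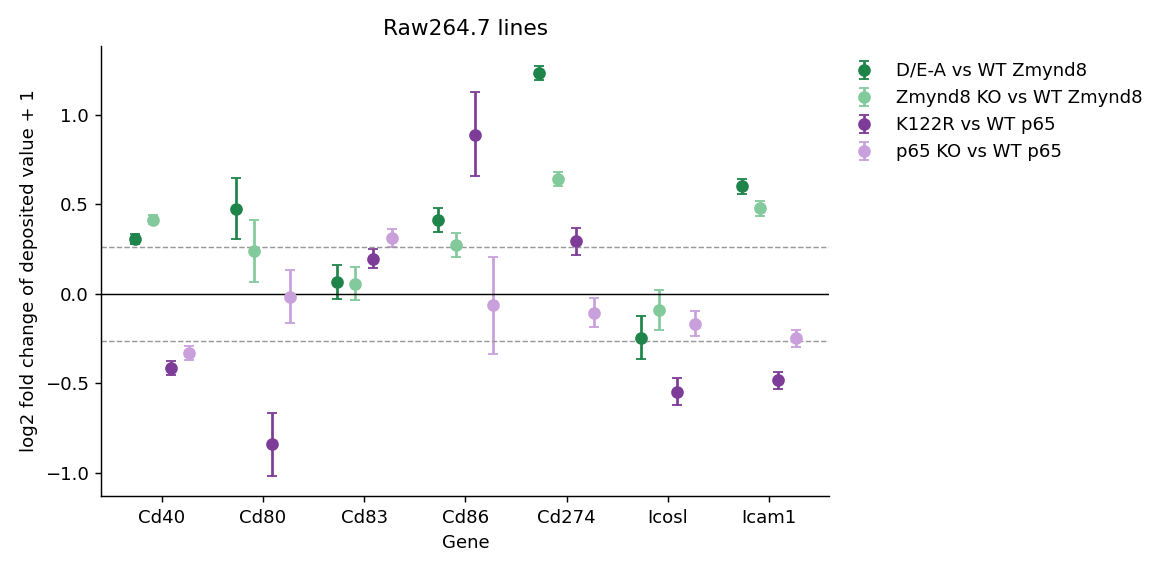
Log2 fold change of the deposited value plus 1 for the 7 genes in 4 comparisons of libraries labelled Raw264.7. Bars are 95% limits on the reads and dashed lines mark a fold of 1.2. Cd274 is highest in D/E-A at 1.23, and Cd80 is lowest in K122R at -0.84.

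Counts of the related lists were taken in the same 4 comparisons. Of all genes, 36.7% were called higher and 35.9% lower in D/E-A, and 33.8% and 36.5% in Zmynd8 KO. These shares were 30.8% and 32.5% in K122R, and 26.3% and 25.7% in p65 KO. No list was tested against them. Of the TNF superfamily ligands, 5 of 7 past the filter were called higher in D/E-A and 2 lower, with Tnfsf10 at 4571 reads against 2017. In that list 6 of 9 were higher and 2 lower in Zmynd8 KO, 4 of 8 higher and 3 lower in K122R, and 4 of 8 higher and 1 lower in p65 KO. Tnfsf15 was at 590 reads in K122R and 568 in p65 KO, against 146 in WT p65. Of 14 adhesion molecules, 10 were called higher in D/E-A and 1 lower, among them Itgal at 11387 reads against 5226. Of 15 such genes, 8 were higher and 1 lower in Zmynd8 KO, 7 higher and 5 lower in K122R, and 3 higher and 2 lower in p65 KO. The other checkpoint ligands gave 5 higher and 2 lower both in D/E-A, of 9, and in Zmynd8 KO, of 10. They gave 4 higher and 1 lower of 8 in K122R, and 2 higher and none lower of 9 in p65 KO. Lgals3, which encodes galectin-3, was at 6942 reads in D/E-A against 13773 in WT Zmynd8, and at 5373 in K122R against 1638 in WT p65. Of the CD40 signalling genes 4 of 11 were higher both in D/E-A and in Zmynd8 KO, and 1, Traf1, was lower in D/E-A, at 8327 reads against 11156. In the same list, Birc3 was at 3175 reads in WT Zmynd8, 5292 in D/E-A and 5232 in Zmynd8 KO. Of that list, K122R had 2 higher and 2 lower, and p65 KO 1 lower. Relb, the noncanonical NF-κB subunit, was at 632 reads in K122R and 338 in WT p65. The other B7 family ligands gave 1 of 2 lower in D/E-A, 2 of 3 higher in Zmynd8 KO, 1 of 3 higher in K122R and 1 of 2 lower in p65 KO. The call in K122R was Pdcd1lg2, on 2 reads against 1. The filter on these tables was a mean value of at least 1, so other calls in these counts also rest on few reads, such as that of Cd70 in Zmynd8 KO, on 7 reads against 2.

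The 2 families of lines labelled Raw264.7 carried the ligands at different levels. As CPM of reads, whose tables were normalized separately, Cd86 was at 177 to 230 in the Zmynd8 lines and 14.5 to 25.3 in the p65 lines, a ratio of medians of 13.4. Cd274 was at 463 to 1065 against 154 to 183, and Cd40 at 1056 to 1336 against 531 to 783. Cd83 was lower in the Zmynd8 lines, at 101 to 105 against 381 to 473, as was Icosl at 56.8 to 68.8 against 140 to 226. Cd80 and Icam1 overlapped. The 5 genes without overlap compare with 75.3% of 11684 genes tested, 25.9% higher and 49.5% lower in the Zmynd8 lines, so a lack of overlap was common here. The families also differed in the neutrophil and Xist reads given above. Summed macrophage marker levels were 4763 to 9001 CPM in the Zmynd8 lines and 1719 to 2083 in the p65 lines. Line and cell makeup cannot be told apart.

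**Figure D5:**
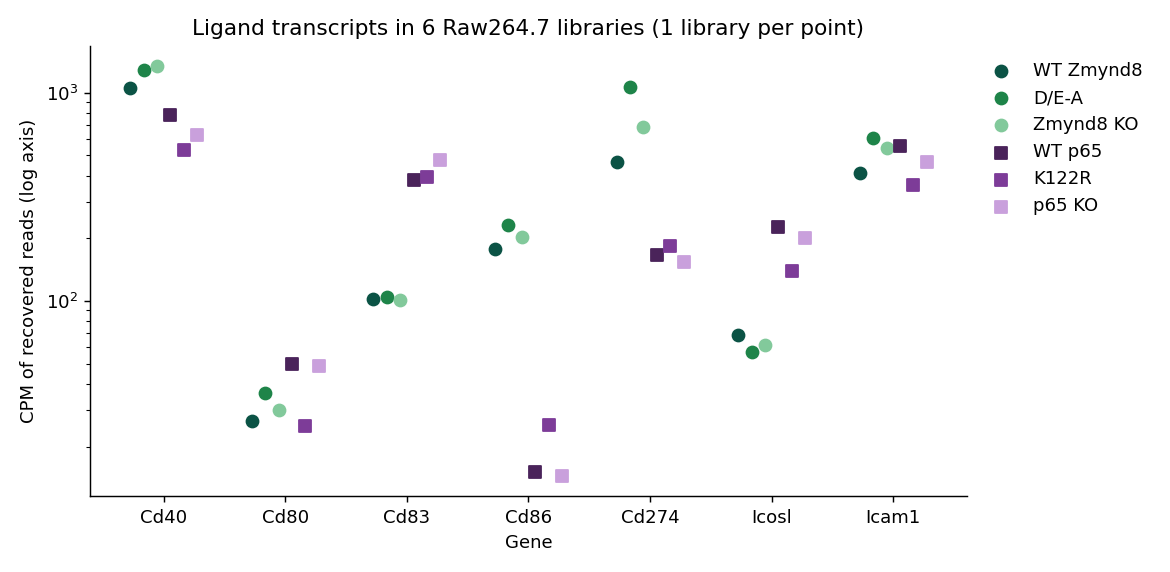
CPM of reads on a log axis for the 7 genes in 6 libraries labelled Raw264.7. Circles are the Zmynd8 lines and squares the p65 lines, each point is 1 library and there are no error bars. Cd86 and Cd274 are higher in all 3 Zmynd8 lines than in all 3 p65 lines, and Cd83 and Icosl are lower.

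Across the 12 libraries, log2 levels centred on the mean of each cell system were compared as a description. Cd86 and Cd274 had a Pearson r of 0.93, Cd40 and Cd274 0.92, Cd40 and Icam1 0.91, and Cd83 and Icosl 0.91, while r of Cd80 with the other ligands lay between -0.21 and 0.07. The points share treatment and line. Among 8209 genes with a mean of at least 10 CPM, the closest to Cd40 were Cp, Nfkbie and Gca (r of 0.97 each), and those closest to Cd274 were Tom1l2 (0.99), Tap1 (0.98) and Tapbp (0.98). Tap1 and Tapbp load peptides on MHC class I. Cd86 was closest to Pnp2, Cd69 and Psmb9 (0.99 each), Cd83 to Ccl22 (0.99), Traf5 (0.97) and Gm11427 (0.97), and Icam1 to Tagap, Pou2f2 and Bcl2a1d (0.98 each). Icosl was closest to Cep85 (0.97), Mgat4a (0.96) and Hmgb2 (0.95), and Cd80 to Milr1 (0.92), Ccl2 (0.85) and Minpp1 (0.85).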

How the data were processed

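RNA-seq of 6 BMDM and 6 Raw264.7 libraries was used. For BMDMs, reads were mapped by the authors with TopHat (mm10 transcriptome), and estimated counts and TPM of each gene were deposited. The counter was not given in the sources used here. The deposited estimated counts were rounded, divided by library totals (CPM), and tested for a fold of at least 1.2 on CPM plus 1 for genes averaging at least 10 counts. For Raw264.7, the authors deposited 1 signal value per gene, normalized separately in each table, from which whole reads were recovered for 100% of values (tolerance 0.02; 99.996% in Zmynd8 KO, where the exception is Zmynd8). Fold changes used the deposited signal plus 1 at a mean of at least 1. Deposited fold changes, p-values and 2 unlabelled columns of values were not used. The design had allowed for counts, and the signal rule was applied.

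The genes and lists were chosen with earlier results of these data known. Genes were named if they were the 7 ligands, Zmynd8 or Rela, the 2 highest or 2 lowest of a list in a comparison, or the 3 genes of highest r with a ligand. Xist was named after its values were seen. The result of a marker list is not reported here. M0, M1 and M2 in the labels were read as NT, LPS and IL-4. Alternatives were a pseudocount of 0.1, no filter, median ratio and TMM (edgeR 4.0.16) scaling, a fold of at least 2, an exact binomial test on reads, deposited TPM, and recovered reads over library totals. Scripts (Python 3.11.15, SciPy 1.17.1) were tested on simulated data.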

Additional observations from a re-analysis of the deposited data

Results flagged for a closer look

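Of the ligands called in cKO against WT both without treatment and with IL-4, Cd40 and Cd86 had opposite signs in the 2 treatments. Cd83, Cd274 and Icosl also had opposite signs and were each called in 1 of the 2 treatments on CPM plus 1. On deposited TPM, Cd83 and Icosl were called in both. Cd40 was lower in cKO without treatment, at a log2 fold change of -0.38, and higher with IL-4, at 0.80. Cd86 was at -0.31 without treatment and 0.50 with IL-4. Each value compares 1 library with 1 library, and the difference between treatments was not tested.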

How the results depend on the processing

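No paired analysis was possible because each comparison set 1 library against 1 library, and no replicate could be left out. A fit of genotype with the 3 BMDM treatments as blocks, which would take treatments for replicates, was not run. With a fold of at least 2 in place of 1.2, the number of ligands called in cKO against WT was 1 in NT, 0 with LPS and 1 with IL-4. At that fold, in the libraries labelled Raw264.7, it was 1 in the D/E-A comparison and 0 for K122R, p65 KO and Zmynd8 KO. On deposited TPM, 5 ligands were called in NT and 2 with LPS. No called difference of a ligand changed sign under these alternatives. The other 68 counts of called ligands stayed within 1.5 times the main count, and a pseudocount of 0.1, no filter, either scaling and the exact binomial test on reads changed none by more. The exact binomial test changed the number of all genes called from 14977 to 6682 in Zmynd8 KO, from 12453 to 5219 in K122R and from 10325 to 2620 in p65 KO. Apart from the single genes given in the report, Cd83 was called in NT with a pseudocount of 0.1, at -0.27, and Cd80 was called for LPS over NT in cKO with TMM scaling, at 0.68, and on TPM, at 0.42. Icosl, with 142 counts in its lowest library, and Cd80, with 132, are limited by depth.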

Other observations

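Receptors of the ligands showed patterns of their own. Pdcd1, which encodes PD-1, the receptor of CD274, was at 129 to 194 CPM in the 3 p65-line libraries of Raw264.7 cells, at 1.06 to 1.41 CPM in the Zmynd8 lines, and at no more than 2 counts in any BMDM library. Cd28 fell by 3.19 on the log2 scale with LPS in WT BMDMs and fell by 2.98 in cKO, and the addition of 0.57 and 0.54 by median ratio scaling left it lower. Pdcd1 was among the 2 highest or lowest of its list in K122R, at a log2 value of -0.27, and in p65 KO, at 0.18. Retnla, an IL-4 response gene, was at 85 counts in WT IL-4 and 5 in cKO IL-4, while Arg1 was at 42592 and 40252.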
